A study of Mus musculus with 14 samples.

Results

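The clustered protocadherins are 57 of the 53700 genes in the deposited tables, chosen as the protein-coding genes whose symbol is Pcdha, Pcdhb or Pcdhg followed by a number, or one of the C-type symbols such as Pcdhgc3. There were 14 alpha, 22 beta and 21 gamma members. The symbol Pcdha11 belonged to 2 gene IDs, which were kept apart, and Pcdhgb8, annotated as a polymorphic pseudogene, lay outside the rule. On GRCm39 all 57 lie on the plus strand of chromosome 18, the alpha cluster at chr18:37063237-37320714, the beta cluster at chr18:37397991-37657532 and the gamma cluster at chr18:37794846-37974926.

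Protocadherins are cadherin-like adhesion proteins of the cell surface, known best from neurons. In the alpha and gamma clusters each member has its own promoter and its own large first exon, which is spliced to constant exons shared by the whole cluster, while beta genes are mostly single exons. A neuron switches on a small, largely random set of these promoters, through CTCF, cohesin and promoter methylation, and proteins of matching sets bind each other between cells. The C-type members (Pcdhac1, Pcdhac2, Pcdhgc3, Pcdhgc4 and Pcdhgc5) are regulated apart from the rest and are used by many neurons in common.

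Poly-A-selected RNA of NSPCs, the neural stem and progenitor cells of the adult brain, was sequenced in 14 libraries from C57BL/6 mice. Quiescent NSPCs were treated with BMP4 (4 libraries) and set against proliferating NSPCs in FGF and EGF (4 libraries). Yme1l KO cells received an adeno-associated virus for Cre-GFP (3 libraries) and were set against GFP control cells given a GFP virus (3 libraries), all 6 in FGF and EGF. YME1L is a protease of the inner mitochondrial membrane. The labels give no floxed allele, age or serotype for the virus-treated cells, and call their source a wild-type mouse. They do not say whether replicates came from separate animals or cultures, so p-values measure the spread between these libraries, which may be technical.

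Estimated counts totalled 6475099 to 8797750 in quiescent, 8331999 to 8992709 in proliferating, 9053124 to 9490756 in Yme1l KO and 9226080 to 10320736 in GFP control libraries. Yme1l1 itself had 25.7, 25.6 and 22.9 CPM (counts scaled to library depth) in the Yme1l KO libraries, against 135, 124 and 121 CPM in the GFP controls. It also stood at 3.91 to 11.1 CPM in quiescent and 2.18 to 4.77 CPM in proliferating libraries, which were quantified in a separate table. Of 14 neural stem and progenitor markers, 13 had enough counts in each comparison and Prom1 did not, and they moved in both directions. In quiescent cells 4 rose and 7 fell, with Gfap at 2.78, Egfr at -1.77 and Nes at -1.15 on the log2 scale and summed levels of 5322 to 6051 CPM in quiescent and 5016 to 5185 CPM in proliferating libraries. In Yme1l KO cells 2 rose and 6 fell, with Fabp7 at -0.88 and Vim at -0.37 and sums of 5234 to 5521 CPM in Yme1l KO and 6122 to 6246 CPM in GFP control libraries, without overlap. Of all genes tested, 29.9% rose and 35.5% fell in quiescent cells, and 25.4% rose and 26.2% fell in Yme1l KO cells. The neuronal genes Stmn2 and Gad2 had at most 0.03 CPM as a group mean and the microglial genes C1qa, C1qb and Cx3cr1 were listed at 0 in all groups, though Tmem119 of the same list was not. Gad1 and Map2, which were also in the list for neurons, were present at 30.5 and 1215 CPM in Yme1l KO cells and at 13.4 and 1206 CPM in GFP controls.

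The gamma cluster carried nearly all of the protocadherin mRNA, and Pcdhgc3 nearly all of the gamma cluster. On the TPM scale (transcripts per unit of length, scaled to a fixed total per library), the gamma sum was 2639 ± 106 in quiescent and 2128 ± 26.1 in proliferating cells (SD, n = 4 each), and 959 ± 68.2 in Yme1l KO and 760.4 ± 6.45 in GFP control cells (SD, n = 3 each). The beta sum was 39.4 ± 4.20 TPM in quiescent, 35.9 ± 0.801 TPM in proliferating, 91.5 ± 6.90 TPM in Yme1l KO and 60.4 ± 3.98 TPM in GFP control cells. The alpha sum was only 3.54 ± 0.683 TPM in quiescent, 3.09 ± 0.147 TPM in proliferating, 0.928 ± 0.460 TPM in Yme1l KO and 1.02 ± 0.387 TPM in GFP control cells. Gamma thus made up 98.0 to 98.6% of protocadherin TPM in the quiescent and proliferating libraries and 91.1 to 93.1% in the other 6. Gamma and beta sums of Yme1l KO and GFP control libraries did not overlap, nor did the gamma sums of quiescent and proliferating libraries. The alpha sums overlapped in both comparisons.

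**Figure D1:**
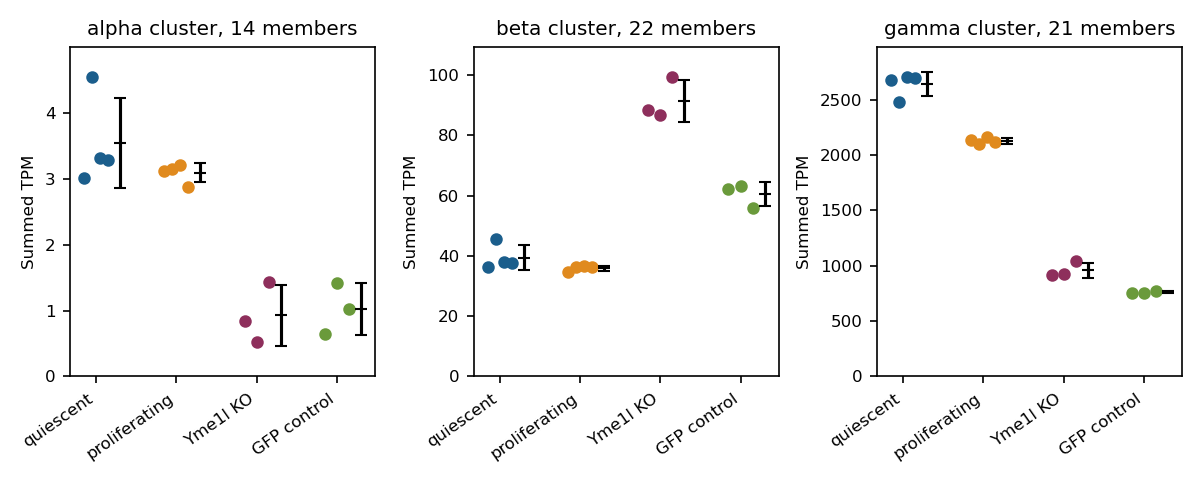
Summed TPM of the alpha, beta and gamma members (y axes from 0, a scale of its own for each cluster) in each library of the 4 groups; points are libraries, and the bar beside them gives the mean and SD. The gamma sum reached 2704 TPM in a quiescent library, while no alpha sum passed 4.54 TPM.

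The counts behind these levels differ in how sharply they belong to 1 gene. Of all positive estimates for alpha members 100%, for gamma members 98.3% and for beta members 24.5% were not whole numbers (further than 0.0005 from one), against 21.3% over all genes. Reads that match several members are split between them by the quantification, and on the reference transcripts (GENCODE M21) the median share of 31-base words found in no other gene was 36.4% for alpha, 88.2% for beta and 53.0% for gamma members. Levels of single alpha and gamma members therefore carry an assignment error that the replicate spread does not show in full.

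**Figure D2:**
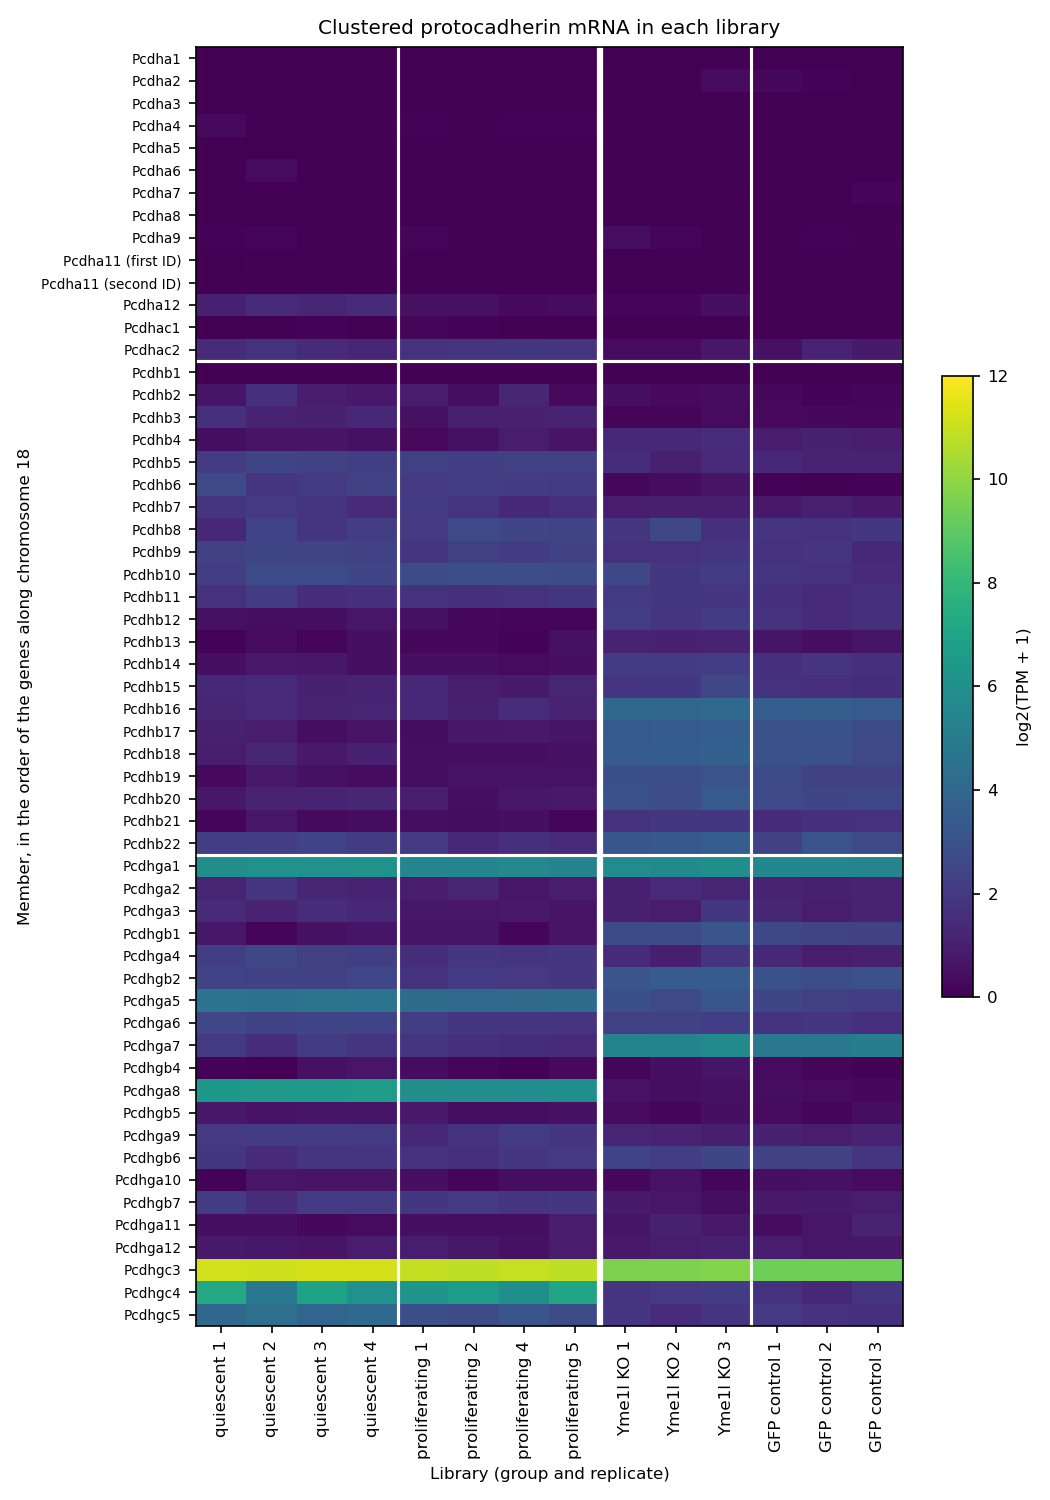
log2(TPM + 1) of the 57 members (rows, in gene order, alpha above beta above gamma) in the 14 libraries (columns); white lines part the clusters and the groups, and the wide line parts the 2 tables that were quantified separately. Pcdhgc3 is the brightest row in every library, the alpha rows are near 0, and Pcdhga8, Pcdhgc4 and Pcdhga7 differ between the left and right sides.

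Pcdhgc3 was the dominant member in all 14 libraries. This C-type gamma protein is known from mouse neurons to promote dendrite branching and to bind Axin1. It had 2315, 2228, 2360.35 and 2393 TPM in the quiescent libraries, against 1913, 1859, 1945 and 1830.2 TPM in the proliferating libraries. It had 780.1, 787 and 872 TPM in Yme1l KO libraries, against 645, 652 and 659.8 TPM in GFP controls. Every quiescent library was above every proliferating one, and every Yme1l KO library above every GFP control. The gene ranked between 36 and 43 among all genes by TPM in quiescent, 60 and 67 in proliferating, 148 and 168 in Yme1l KO and 207 and 209 in GFP control libraries. It made up 84.01 to 90.02% of gamma TPM across the 14 libraries.

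Differences within each comparison were tested by edgeR's quasi-likelihood test across all genes with enough counts, with Benjamini-Hochberg adjustment over all of them and a threshold of 0.05. A rise or fall below is a call by this test, and fold changes are on the log2 scale of the first over the second group. Of the 57 members 38 had enough counts between quiescent and proliferating cells and 37 between Yme1l KO and GFP control cells. The 19 and 20 others had too few counts to test, among them 12 and 13 alpha members, and 6 members were listed at 0 in all 14 libraries: Pcdha1, Pcdha3, Pcdha5, Pcdha8, 1 of the Pcdha11 IDs and Pcdhb1. A count of 0 still allows up to 3 counts, which is 0.291 to 0.463 CPM at these depths (counting error only).

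In quiescent against proliferating cells, 13 members rose and 1 fell (36.8% called), where 65.4% of the 12245 genes tested were called, 29.9% higher and 35.5% lower. The share of members called was thus below that of all genes, with nearly all calls in 1 direction. The median log2 fold change was 0.33 over the members tested and -0.01 over all genes tested. The gamma cluster held most of these rises: 10 of its 19 members tested rose and none fell, with a median of 0.38. Of 17 beta members 2 rose and none fell (median 0.26), and of the 2 alpha members tested 1 rose and 1 fell. Beta members together had 557 ± 140 estimated counts in quiescent and 632 ± 18.9 in proliferating libraries (SD, n = 4 each). Gamma members other than Pcdhgc3 had means of 5258 and 5243. These are sums, and single members of both clusters overlapped in their counts. Whether depth bears on the number of calls per cluster was not tested. At an unadjusted p under 0.05, edgeR gave 1 fall among beta and 0 among gamma members, and DESeq2 called 0 of either lower. Pcdhb10 was called lower with scaling by library size alone or with each library's GC trend removed.

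The alpha changes rested on few reads. Pcdha12 had 1.07, 1.74, 1.47 and 1.67 TPM in quiescent libraries, from 21.1 to 44.3 estimated counts, against 0.452, 0.443, 0.229 and 0.307 TPM in proliferating libraries. The 2 groups did not overlap, and the change was 2.02 ± 0.29 on the log2 scale (here and below, ± SE; adjusted p = 1.66e-05), the largest among the members by edgeR. Pcdhac2, a C-type member needed in mouse serotonergic neurons for the spacing of axons, had 1.66, 2.34, 1.76 and 1.43 TPM in quiescent libraries, against 2.27, 2.50, 2.79 and 2.50 TPM in proliferating libraries. Its values overlapped, since quiescent replicate 2 lay above proliferating replicate 1, and its fall of -0.50 ± 0.18 (adjusted p = 0.0230) was lost under 11 of 20 alternatives. Those included leaving out quiescent replicate 1, 3 or 4 or proliferating replicate 4, with adjusted p of 0.0653, 0.0652, 0.123 and 0.0679.

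The other alpha members were close to the detection limit. Pcdhac1, the second alpha C-type, was listed at 0 except for 0.0850 TPM in quiescent replicate 3, 0.132 in proliferating replicate 1 and 0.101 in proliferating replicate 2. Pcdha9 had 0.0730, 0.125, 0 and 0.0590 TPM in quiescent libraries, against 0.136, 0.0470, 0.0610 and 0 TPM in proliferating libraries. It had 0.375, 0.122 and 0 TPM in Yme1l KO libraries, against 0, 0.0730 and 0.0560 TPM in GFP controls. Its groups overlapped in both comparisons. Neither was tested in either comparison.

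Of the beta genes, Pcdhb18 and Pcdhb22 rose in quiescent cells. Pcdhb18 had 0.969, 1.45, 0.789 and 1.14 TPM in quiescent libraries, against 0.400, 0.410, 0.404 and 0.430 TPM in proliferating libraries (log2 fold change 1.39 ± 0.29, adjusted p = 0.000508). Pcdhb22 had 3.64, 3.48, 4.33 and 3.34 TPM in quiescent libraries, against 3.08, 1.55, 2.14 and 1.82 TPM in proliferating libraries (0.81 ± 0.20, adjusted p = 0.00266). Neither gene's groups overlapped. The most abundant beta gene of both groups, Pcdhb10, had 3.48, 5.45, 5.44 and 4.60 TPM in quiescent libraries, against 5.84, 6.52, 6.06 and 5.81 TPM in proliferating libraries. All its quiescent values were the lower ones, but the difference of -0.37 ± 0.16 did not pass the test (adjusted p = 0.0542). Pcdhb16 had 1.40, 1.80, 1.304 and 1.38 TPM in quiescent libraries, against 1.52, 1.08, 1.84 and 1.24 TPM in proliferating libraries. Its groups overlapped and it was not called (0.04, adjusted p = 0.879).

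The 10 gamma members that rose included the first gene of the cluster, Pcdhga1, and the last, Pcdhgc5. Pcdhga3 had 1.79, 1.302, 1.88 and 1.58 TPM in quiescent libraries, against 0.709, 0.648, 0.785 and 0.526 TPM in proliferating libraries (log2 fold change 1.26 ± 0.26, adjusted p = 0.000454). Pcdhga1 had 59.6, 67.7, 66.7 and 69.4 TPM in quiescent libraries, against 42.5, 42.9, 49.7 and 40.9 TPM in proliferating libraries (0.57 ± 0.06, adjusted p = 1.04e-06). In both genes the groups were apart. Pcdhga8, the most abundant gamma A gene of these cells and chosen here after its values were seen, had 83.8, 89.3, 85.0 and 95.5 TPM in quiescent libraries, against 59.7, 59.3, 57.5 and 61.7 TPM in proliferating libraries (0.56 ± 0.05, adjusted p = 6.16e-08). Its lowest quiescent library lay above its highest proliferating one. Pcdhga2, Pcdhga4, Pcdhgb2, Pcdhga6 and Pcdhga5 rose by 0.79, 0.70, 0.65, 0.62 and 0.38 on the log2 scale, and the call for Pcdhga2 was lost under 10 of 20 alternatives. Those included leaving out proliferating replicate 1, 4 or 5 or quiescent replicate 2, with adjusted p of 0.0648, 0.0989, 0.0676 and 0.102. Pcdhgb2 was the single gamma B gene called, out of 5 tested.

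The 3 gamma C-type genes, neighbours at the end of the cluster, did not move alike. Pcdhgc3 rose by 0.29 ± 0.04 (adjusted p = 1.70e-05). Pcdhgc5, known to increase as mouse neurons mature, had 15.5, 20.2, 13.99 and 16.3 TPM in quiescent libraries, against 6.65, 5.68, 7.99 and 5.64 TPM in proliferating libraries. Its groups were far apart and its log2 fold change was 1.11 ± 0.08 (adjusted p = 4.98e-09). Pcdhgc4, the member on which survival of mouse interneurons depends, had 150, 28.0, 123 and 66.2 TPM in quiescent libraries, against 73.5, 95.3, 62.0 and 136 TPM in proliferating libraries. The groups overlapped fully (-0.07 ± 0.38, adjusted p = 0.882).

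The spread of Pcdhgc4 came from 1 of its transcripts. The longer transcript, of 5024 bases, had 82.8, 77.7, 87.2 and 75.3 CPM in quiescent libraries, against 90.4, 93.7, 95.8 and 89.8 CPM in proliferating libraries. These groups did not overlap (means 80.8 ± 5.30 and 92.4 ± 2.85 CPM, SD, n = 4 each, log2 ratio -0.19). The shorter transcript, of 2272 bases with only 6.74% of its 31-base words unique, was estimated at 158, 0, 115 and 50.5 CPM in quiescent libraries, against 51.8, 79.7, 34.9 and 132 CPM in proliferating libraries. It was estimated at 0 in all Yme1l KO and GFP control libraries. The split by transcript was made after the gene's values were seen, so no p-value is given for it. The part of read assignment in it was not tested.

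**Figure D3:**
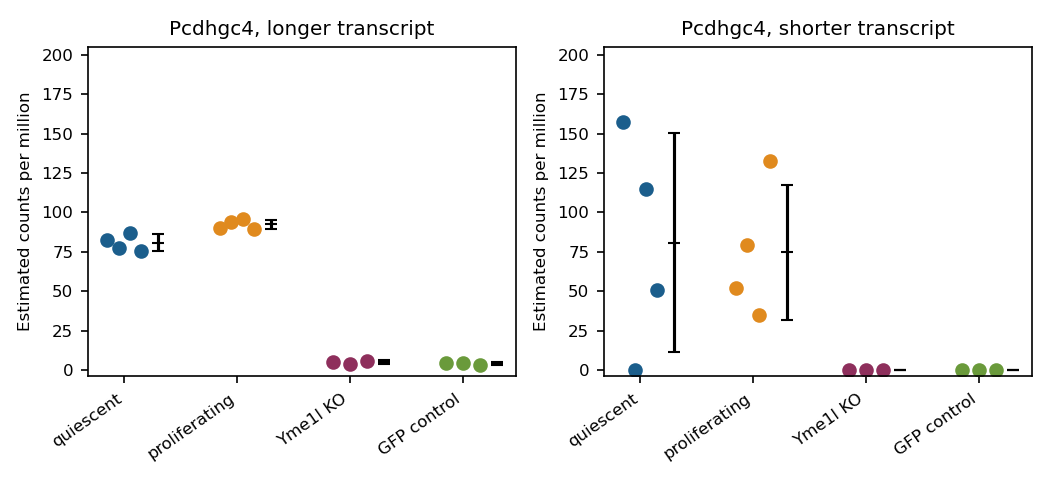
Estimated CPM of the longer and the shorter Pcdhgc4 transcript (y axes) in each library of the 4 groups; points are libraries, and the bar beside them gives the mean and SD. The longer transcript lies between 75.3 and 87.2 in quiescent and between 89.8 and 95.8 in proliferating libraries, while the shorter one runs between 0 and 158.

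In Yme1l KO against GFP control cells, 19 members rose and none fell by edgeR (51.4% called), where 51.6% of the 12625 genes tested were called, 25.4% higher and 26.2% lower. The share called was that of all genes, again with the calls in 1 direction. At an unadjusted p under 0.05 edgeR gave 21 rises and 1 fall, that of Pcdhac2, and DESeq2 called 13 rises and 0 falls after adjustment, 7 of them beta and 6 gamma. The median log2 fold change was 0.44 over the members tested and 0.00 over all genes tested. Of 18 beta members 12 rose, with a median of 0.58, and all 18 had a positive fold change. Of 18 gamma members 7 rose, with a median of 0.31, and 16 had a positive fold change. The 1 alpha member tested was not called.

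Of the 22 beta genes, 6 of those tested were not called: Pcdhb5, Pcdhb7, Pcdhb8, Pcdhb9, Pcdhb15 and Pcdhb21, with adjusted p of 0.583, 0.566, 0.473, 0.430, 0.0551 and 0.104. Pcdhb1, Pcdhb2, Pcdhb3 and Pcdhb6 had too few counts. Among the 12 that rose, Pcdhb13 had 1.27, 1.12 and 1.18 TPM in Yme1l KO libraries, against 0.603, 0.374 and 0.620 TPM in GFP controls (log2 fold change 1.14 ± 0.31, adjusted p = 0.00619). That call was lost with DESeq2 (1.15, adjusted p = 0.0594), and the change was 0.52 by limma on log2(TPM + 1), where the gene was still called. Pcdhb18 had 10.4, 10.6 and 12.3 TPM in Yme1l KO libraries, against 7.07, 6.94 and 5.33 TPM in GFP controls (0.78 ± 0.11, adjusted p = 6.97e-05). Both genes kept their groups apart. Pcdhb16, the most abundant beta gene here, had 14.9, 14.8 and 16.1 TPM in Yme1l KO libraries, against 10.9, 11.2 and 9.54 TPM in GFP controls (0.53 ± 0.08, adjusted p = 0.000107). Pcdhb22 had 8.26, 8.84 and 10.8 TPM in Yme1l KO libraries, against 4.24, 7.32 and 5.30 TPM in GFP controls (0.63 ± 0.12, adjusted p = 0.000488). Pcdhb16 and Pcdhb22 were likewise higher in all 3 Yme1l KO libraries than in any control.

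Pcdhb10 had 4.99, 2.83 and 3.28 TPM in Yme1l KO libraries, against 2.53, 2.26 and 1.77 TPM in GFP controls (0.76 ± 0.24, adjusted p = 0.0171). Its groups did not overlap, but Yme1l KO replicate 1 stood well above the others, and without it the change was 0.48 with an adjusted p of 0.129. Without GFP control replicate 3 the adjusted p was 0.0878. The other called beta genes, Pcdhb4, Pcdhb11, Pcdhb12, Pcdhb14, Pcdhb17, Pcdhb19 and Pcdhb20, rose by 0.48 to 0.72 on the log2 scale. The calls for Pcdhb4, Pcdhb11 and Pcdhb12 were lost under 8, 7 and 6 of 17 alternatives, and that for Pcdhb14 under 2, with counts scaled from TPM (adjusted p = 0.0935) and by limma on log2(TPM + 0.1) (adjusted p = 0.0512). Leaving out single libraries also lost some: adjusted p was 0.0817, 0.0790 and 0.0977 for Pcdhb4 without GFP control replicate 1 or 3 or Yme1l KO replicate 3. Without GFP control replicate 2 or Yme1l KO replicate 1 it was 0.115 and 0.0865 for Pcdhb11 and 0.0792 and 0.0822 for Pcdhb12.

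Among gamma genes, Pcdhga6 had 3.83, 4.20 and 3.64 TPM in Yme1l KO libraries, against 2.34, 2.50 and 2.17 TPM in GFP controls (log2 fold change 0.74 ± 0.15, adjusted p = 0.000699). Pcdhga7, singled out after its values were seen, had 40.1, 39.9 and 52.7 TPM in Yme1l KO libraries, against 27.3, 27.0 and 31.9 TPM in GFP controls (0.62 ± 0.13, adjusted p = 0.00510). In both genes all Yme1l KO libraries lay above all controls. Pcdhga1 had 54.8, 52.5 and 61.2 TPM in Yme1l KO libraries, against 47.4, 46.2 and 43.6 TPM in GFP controls (0.29 ± 0.06, adjusted p = 0.00127). Pcdhga5, Pcdhgb2 and Pcdhgb1 rose by 0.73, 0.49 and 0.44, and the call for Pcdhgb1 was lost under 8 of 17 alternatives. Its adjusted p was 0.0902, 0.119 and 0.145 without GFP control replicate 2 or 3 or Yme1l KO replicate 3, and without the last its change was 0.24.

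Of the C-type members only Pcdhgc3 was called, with a rise of 0.31 ± 0.05 (adjusted p = 0.000164). Pcdhgc4 had 2.64, 3.02 and 3.21 TPM in Yme1l KO libraries, against 2.26, 1.62 and 2.48 TPM in GFP controls, without overlap (0.39 ± 0.17, adjusted p = 0.0701). Pcdhgc5 had 2.75, 1.84 and 2.59 TPM in Yme1l KO libraries, against 2.94, 2.24 and 2.11 TPM in GFP controls. Its ranges overlapped in part (0.24 ± 0.17 from the counts, adjusted p = 0.255). Most of its estimated counts in these libraries came from a transcript with a retained intron. That transcript had 66.672, 54.663 and 60.738 counts in Yme1l KO libraries, against 31.23, 49.209 and 39.922 in GFP controls. The longest coding transcript of Pcdhgc5 went the other way, at 12.797, 0 and 10.012 counts against 25.007, 14.002 and 24.69. Neither transcript's groups overlapped. This split was made after the values were seen and was not tested. Pcdhac2 had 0.291, 0.275 and 0.682 TPM in Yme1l KO libraries, against 0.459, 1.25 and 0.834 TPM in GFP controls. Its groups overlapped and it was not called (-1.02 ± 0.43, adjusted p = 0.0615). Pcdha12 was listed at 0 in the 3 GFP controls and at 0.173, 0.122 and 0.425 TPM in the Yme1l KO libraries, from 3.35 to 11.045 estimated counts, too few to test. Pcdhac1 was listed at 0 in all 6 libraries.

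**Figure D4:**
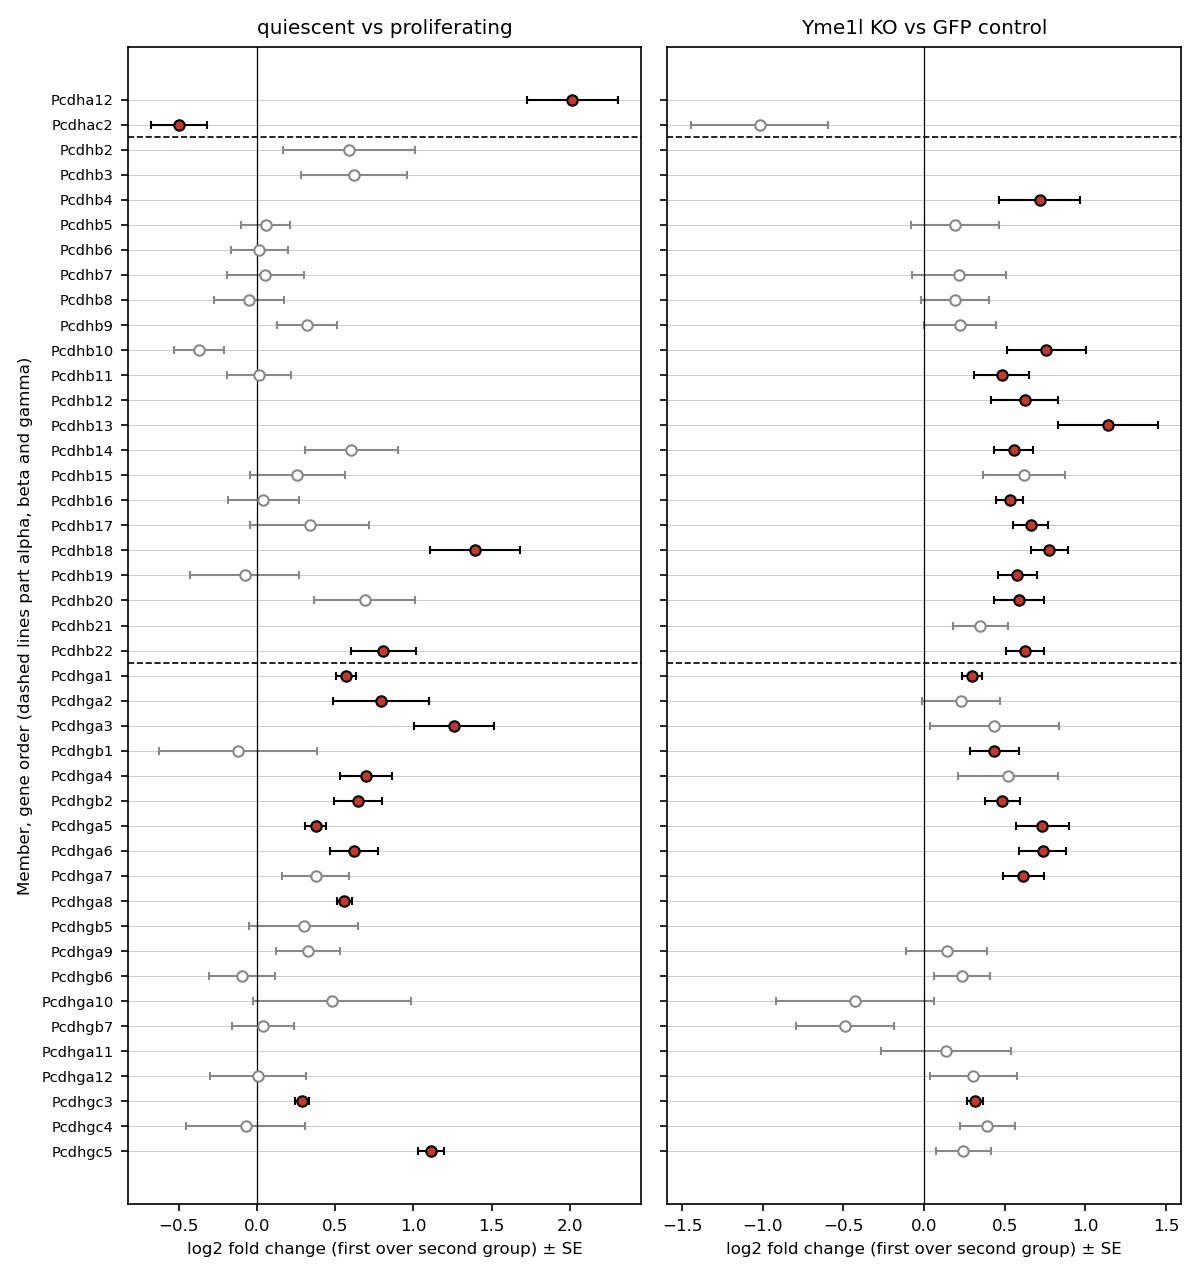
log2 fold change ± SE (x axes) of each member with enough counts (rows, in gene order) for quiescent over proliferating cells (left) and Yme1l KO over GFP control cells (right); filled red points passed an adjusted p of 0.05. On the left 10 of the 13 rises lie in the gamma cluster. On the right 12 of the 19 lie in the beta cluster by edgeR, while DESeq2 called 7 beta and 6 gamma members there. Summed beta counts were lower on the left (means of 557 and 632) than on the right (means of 2134 and 1524).

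Of the 57 members 7 rose in both comparisons, which share no library: Pcdhb18, Pcdhb22, Pcdhga1, Pcdhgb2, Pcdhga5, Pcdhga6 and Pcdhgc3. They were 7 of the 13 that rose in quiescent cells and 7 of the 19 that rose in Yme1l KO cells. Of the 32 members tested in both comparisons these were 21.9%, where 14.8% of the 11477 genes tested in both rose in both. Of all those genes that rose in quiescent cells 50.9% also rose in Yme1l KO cells, and of those that rose in Yme1l KO cells 56.9% also rose in quiescent cells; for members tested in both the shares were 63.6% and 43.8%. Whether the 3 clusters differed in their response was not tested.

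In the authors' deposited tables of their own comparisons, 12 of the 47 members with an adjusted p for the quiescent and proliferating samples were below 0.05, all with a negative fold change. In the authors' deposited table for the knockout, 13 of 40 were below 0.05, all with a positive fold change. The tables do not state which group is on top. Pcdha12 and Pcdhgc5 had -1.95 and -1.37 in the first, and both were higher in quiescent cells here. By these members' own values, negative fold changes there mark higher levels in quiescent cells, so that direction is not separate evidence. Yme1l1, lower in Yme1l KO cells here, had a negative fold change in the second, so positive values there mark higher levels in Yme1l KO cells. The share of all genes below 0.05 in the authors' results was not counted, so the member counts cannot be set beside it. Of 20940 genes with a fold change in the DESeq2 fit made here, 3904 were called higher and 3931 lower in quiescent cells. In Yme1l KO cells 2388 were called higher and 2688 lower, of 21563.

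The set of gamma and beta genes in use differed between the 2 tables, which were quantified separately, so the levels are set side by side without a test. Pcdhga8 had 57.5 to 95.5 TPM in the quiescent and proliferating libraries, and 0.189 to 0.510 TPM in the Yme1l KO and GFP control libraries. In the quiescent and proliferating libraries that was 39.5 to 43.7% of the TPM of gamma A and B members, a sum that leaves out Pcdhgb8. Pcdhga7 stood at 1.76 to 3.32 TPM in the first 8 libraries and at 27.0 to 52.7 TPM in the other 6. Pcdhgc4 likewise had 28.0 to 150 TPM in the first 8 and 1.62 to 3.21 TPM in the other 6. Pcdhga1 was similar throughout, at 40.9 to 69.4 TPM. The pseudogene Pcdhgb8, which is no member, had 90.1 to 95.2 TPM in quiescent, 97.8 to 105 in proliferating, 1.49 to 2.43 in Yme1l KO and 1.93 to 2.95 in GFP control libraries.

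In the beta cluster the neighbours Pcdhb14 to Pcdhb22, grouped after their values were seen, made up 17.4 to 28.0% of beta TPM in quiescent and proliferating libraries and 73.7 to 78.5% in Yme1l KO and GFP control libraries. Pcdhb6 went the other way, at 2.61 to 5.30 TPM in the first 8 libraries and 0.0530 to 0.560 TPM in the other 6. Over the 39 beta, gamma A and gamma B genes other than Pcdhb1, Pearson's r of log2(TPM + 1) between 2 libraries was 0.95 to 0.99 within a group, 0.95 to 0.99 between the 2 groups of a table and 0.20 to 0.30 between tables. These genes share libraries and read assignment. Over 11805 protein-coding genes with a mean of at least 1 TPM the same r was 0.98 to 0.99, 0.92 to 0.98 and 0.69 to 0.78.

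The 2 tables also differed with base composition over all genes. The median log2 ratio of proliferating over GFP control TPM (0.5 added to each mean) was -2.83 for genes of up to 42% GC and 0.86 for those of 57 to 60%, with r = 0.70 across genes. The 17 beta members with a mean of at least 1 TPM over these 2 groups, at 39.1 to 49.0% GC, had ratios of -2.93 to 2.70. Their median was -1.21. Pcdhb12, Pcdhb14 and Pcdhb17 to Pcdhb21 reached this minimum only through GFP control cells, and Pcdhb6 and Pcdhb7 only through proliferating cells. Pcdhb1 to Pcdhb4 and Pcdhb13 did not reach it. The 12 gamma A and B members with enough TPM lie within 51 to 53.8% GC, and their ratios ran from -3.50 for Pcdhga7 to 6.28 for Pcdhga8, with a median of 0.10. The GFP control means of Pcdhga8 and Pcdhgb7 were 0.273 and 0.875 TPM, so they reached the minimum only through proliferating cells. Pcdhgb1 and Pcdhga2, at 0.460 and 0.978 TPM in proliferating cells, reached it only through GFP control cells. The 2 tables differ in viral treatment as well as in this trend, and these cannot be told apart. The labels do not say whether the cultures also differed.

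**Figure D5:**
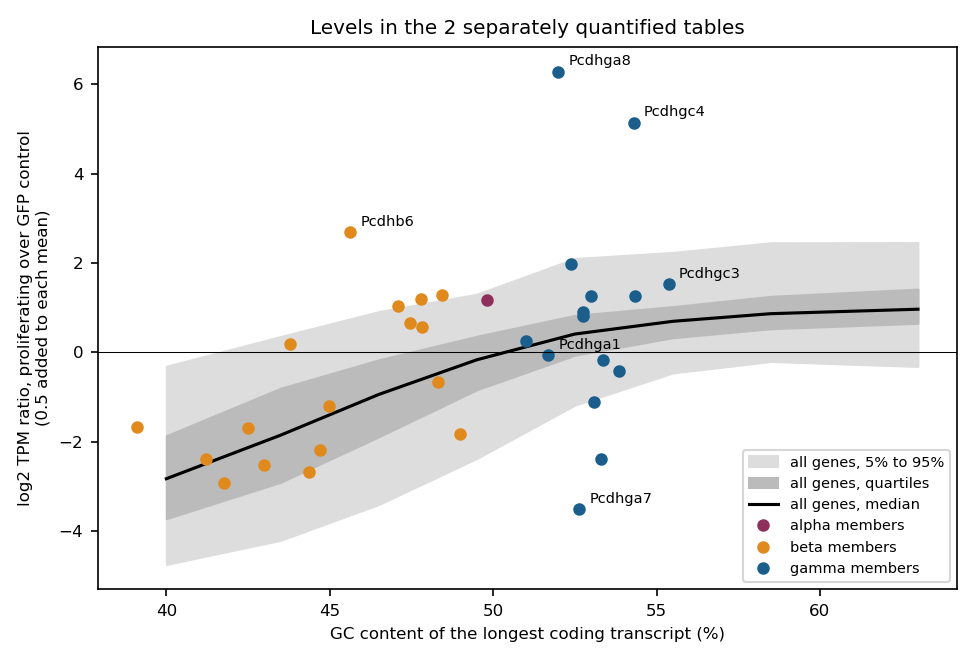
log2 TPM ratio of proliferating over GFP control cells (y axis, 0.5 added to each group mean) against the GC content of the longest coding transcript (x axis); coloured points are members with a mean of at least 1 TPM, the line is the median of all protein-coding genes in bins of GC, and the grey bands hold their middle 50% and 90%. The highest member points are Pcdhga8 at 6.28 and Pcdhgc4 at 5.14, and the lowest is Pcdhga7 at -3.50.

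Genes known to act on the clusters' promoters, such as CTCF, cohesin, the DNA methyltransferases and SETDB1, moved in both directions. In quiescent against proliferating cells 3 of 28 tested rose and 9 fell, with a median log2 fold change of 0.03, so the falls were near the 35.5% of all genes called lower. Uhrf1, which guides maintenance methylation, fell by 3.33, Dnmt1, the maintenance methyltransferase, by 1.85, Tet3, which oxidises methylated cytosine, by 1.37 and Setdb1, a histone H3 lysine methyltransferase, by 1.17. Ctcf was at 20.3 ± 4.66 CPM in quiescent and 25.8 ± 3.45 CPM in proliferating cells and was not called (adjusted p = 0.0648). In Yme1l KO against GFP control cells 5 of 31 rose and 18 fell, with a median of -0.21, where 25.4% of all genes rose and 26.2% fell. Ctcf fell by 0.41, the cohesin subunit Rad21 by 0.43, Smchd1, a repressor of the clusters in mouse, by 0.47, Trim28 by 0.59, Dnmt1 by 0.86, Uhrf1 by 1.12 and Esco2, a cohesin acetyltransferase, by 1.17. Dnmt3b, which in mouse embryos methylates these promoters, fell by 1.23 in quiescent and by 0.96 in Yme1l KO cells, from group means of at most 3.64 CPM. The other de novo methyltransferase, Dnmt3a, rose by 0.22 in quiescent and by 0.51 in Yme1l KO cells. Dnmt1, Uhrf1 and Esco2 are also known to be high in dividing cells.

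Of genes that process or signal for protocadherins, 12 of 26 tested rose and 3 fell in quiescent cells (median 0.19). In Yme1l KO cells 12 of 25 rose and 2 fell (median 0.16). Over all genes tested, 29.9% rose and 35.5% fell in quiescent cells, and 25.4% rose and 26.2% fell in Yme1l KO cells. The list was not tested as a set. In quiescent cells Prkca, a protein kinase C, rose by 2.45, the protease Adam10, which sheds their ectodomain, by 1.43, the gamma-secretase subunit Psen2 by 1.12 and Abi1 of the WAVE actin complex by 0.94. In Yme1l KO cells Cyfip2 of the WAVE complex rose by 0.75, Psen2 by 0.74, Nlgn2, a postsynaptic adhesion protein, by 0.42 and Abi1 by 0.34. Adam10 had 254 ± 9.05 CPM in Yme1l KO and 245 ± 3.75 CPM in GFP control cells (adjusted p = 0.413).

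Protocadherins outside the clusters, with the Fat, Dachsous and Celsr cadherins, gave 7 rises and 4 falls among 15 tested in quiescent cells (median 0.27). Pcdh17 rose by 2.08, Fat1 by 1.34, Pcdh7 by 1.32 and Pcdh1 by 0.83 on the log2 scale. In Yme1l KO cells 7 of 17 rose and 5 fell (median 0.09), with Pcdh17 up by 1.01, Pcdh9 by 0.69 and Dchs1 by 0.63, and Celsr1 lower at -0.53. Of classical cadherins and catenins 9 of 14 rose and 3 fell in quiescent cells (median 0.59), led by Cdh22, which had 890 ± 76.0 CPM in quiescent and 128 ± 7.37 CPM in proliferating cells. Among the same genes 4 of 14 rose and 3 fell in Yme1l KO cells (median 0.07).

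Markers of other cell types moved in the same comparisons, where 29.9% of all genes tested rose and 35.5% fell in quiescent cells. In Yme1l KO cells these shares were 25.4% and 26.2%. Of 9 tested astrocyte markers 7 rose and 2 fell in quiescent cells, and their summed level was 5324 to 5595 CPM in quiescent and 3821 to 3964 CPM in proliferating libraries. In Yme1l KO cells 6 of 8 rose and 1 fell, with sums of 1409 to 1683 CPM in Yme1l KO and 1122 to 1153 CPM in GFP control libraries. Of 6 tested oligodendrocyte lineage markers 2 rose and 2 fell in quiescent cells, with sums of 2917 to 3202 CPM in quiescent and 3875 to 4314 CPM in proliferating libraries. Of the same 6, 3 rose in Yme1l KO cells, with sums of 2965 to 3359 CPM in Yme1l KO and 2391 to 2524 CPM in GFP control libraries, while Mog was listed at 0 in every group. Of 15 neuronal markers 3 had enough counts between quiescent and proliferating cells, with sums of 54.03 to 110 CPM in quiescent and 55.4 to 81.0 CPM in proliferating libraries, and 2 of them fell. In the other comparison 5 were tested, 1 rose and 1 fell, with sums of 1248 to 1301 CPM in Yme1l KO and 1183 to 1280.4 CPM in GFP control libraries. Ependymal sums were 49.6 to 58.2 CPM in quiescent, 72.1 to 78.4 CPM in proliferating, 19.7 to 26.7 CPM in Yme1l KO and 16.0 to 19.9 CPM in GFP control libraries. Microglial sums were 4.44 to 7.60 CPM in quiescent and 1.72 to 2.003 CPM in proliferating libraries, without overlap, and of the 2 markers tested Tmem119 rose (4.06 CPM in quiescent and 0.105 CPM in proliferating cells as group means). They were 4.99 to 7.10 CPM in Yme1l KO and 3.35 to 5.57 CPM in GFP control libraries, with neither of 2 markers called (adjusted p of 0.0923 for P2ry12 and 0.253 for Cd68). Vessel and fibroblast sums were 16.1 to 22.2 CPM in quiescent and 12.9 to 16.9 CPM in proliferating libraries, where Kdr rose by 2.29 and Acta2 fell by 1.45 among 4 tested. These sums were 5.59 to 6.58 CPM in Yme1l KO and 3.87 to 7.72 CPM in GFP control libraries, with the 1 gene tested not called. The part of any of these cell types in the protocadherin changes was not tested, and in bulk samples more mRNA per cell and more cells of a type cannot be told apart.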

How the data were processed

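RNA of 14 libraries was quantified in 2 separate runs, 1 for the quiescent and proliferating and 1 for the Yme1l KO and GFP control samples. The deposited gene tables hold expected counts and TPM that the authors made with salmon, per the file headers, on GRCm39, per the submitters' processing notes, which also name DESeq2 1.30.1 and R 4.0.3. The authors' deposited table of each comparison holds log2 fold changes and p-values adjusted by the authors. The TruSeq kit was stranded, per the labels.

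Expected counts were rounded and tested with edgeR 4.0.16 in R 4.3.3 (TMM scaling, filterByExpr by group, robust quasi-likelihood fit), fitted within each table on all genes, with Benjamini-Hochberg adjustment over all tested. The fit was checked on simulated counts. It recovered 52.0% of 1.5-fold and 81.6% of 2-fold changes for quiescent against proliferating libraries. For Yme1l KO against GFP control libraries it recovered 77.8% and 88.8%. Unchanged genes made up 5.76% of the calls in the first and 8.89% in the second. Library totals were 6475099 to 10320736. Levels are TPM as deposited; CPM use TMM-scaled library sizes. GC content and shared 31-base words came from GENCODE M21 transcripts, matched by ID. Replicate numbers did not pair the samples. No sequences of the members are shown.

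The members and gene lists were chosen with earlier results of these data known. Named with all values were the 3 members of each cluster with the highest mean TPM, the 5 C-type members, and up to 4 called members with the largest rise and fall in each comparison; for each list, up to 4 called genes of at least 5 CPM. Ctcf, Rad21, Smchd1, Dnmt3a, Dnmt3b, Adam10, Tmem119, P2ry12, Cd68, Acta2, Pcdhga7, Pcdhga8, Pcdhb6 and Pcdhgb8 were named after their values were seen. Alternatives were other scalings, tools and filters, limma 3.58.1 on log2(TPM + 1) and log2(TPM + 0.1), DESeq2 1.42.0, a fit of all 14 libraries, and leaving out each library; the removal of each library's GC trend and the fit of the shared replicate numbers alone were added after seeing the data.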

Additional observations from a re-analysis of the deposited data

Results flagged for a closer look

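Of 36 sets of 4 values looked at (named members and cluster sums in quiescent and in proliferating libraries), 2 held a library that stood apart from the other 3, and chance gives about 1 in 20 such sets. The gamma sum was 2482 TPM in quiescent replicate 2, against 2678 to 2704 TPM in the other 3 quiescent libraries; it is also the library in which the shorter Pcdhgc4 transcript was estimated at 0. Pcdhac1 had 0.085 TPM in quiescent replicate 3, from 1.62 estimated counts, and was listed at 0 in the other 3. A set with 1 positive value among zeros stands apart by construction, so the chance rate above does not apply to it.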

How the results depend on the processing

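Between quiescent and proliferating cells 10 to 15 members were called higher under the 20 alternatives, and 11 of the 14 calls were made under every one of them. Between Yme1l KO and GFP control cells 13 to 22 were called higher under 17 alternatives, 13 of them by DESeq2, with counts scaled from TPM and by limma on log2(TPM + 0.1), and 12 of the 19 calls were made under every one. No called member changed direction. Library-size scaling alone put the median gene at -0.15 in quiescent cells. The single member called lower in quiescent cells, Pcdhac2, became 0 with DESeq2, counts scaled from TPM, both limma fits, the replicate block, the shared replicate numbers without the block and all 14 libraries in 1 fit, and 2 with library size alone or the GC trend removed; without 1 library each it was 0 to 1. In Yme1l KO cells 1 member (Pcdhac2) was called lower with no filter, with the replicate block and with all 14 libraries in 1 fit, and 0 to 1 without 1 library each. The cluster sums kept their values within the replicate spread with CPM in place of TPM and without each library, although the alpha log2 ratio of Yme1l KO over GFP control cells ran from -0.59 to 0.16 and so changed sign.

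Among the members named with all values, Pcdhb16 and Pcdhgc4 were not called and changed sign in quiescent cells. Pcdhb16 was at -0.0946 with library size alone, -0.19 with the GC trend removed and -0.0679 to 0.19 without 1 library each. Pcdhgc4 was at 0.0242 with counts scaled from TPM, 0.067 with the GC trend removed and -0.26 to 0.25 without 1 library each. In Yme1l KO cells Pcdhgc5 and Pcdhga3 did so. Pcdhgc5 was at -0.0556 with counts scaled from TPM and -0.0173 and -0.0255 by limma with 1 and 0.1 added. Pcdhga3 ran from -0.20 to 0.70 without 1 library each. Other uncalled members also changed sign, such as Pcdhb11 under 7 of 20 alternatives in quiescent cells. Pcdhga11 did so under 2 of 16 in Yme1l KO cells. The causes were not tested. Deviations of libraries with the same replicate number correlated at -0.35 to -0.01 between quiescent and proliferating and at -0.05 to 0.00 between Yme1l KO and GFP control libraries, so the numbers do not pair them. With the replicate block 11 and 19 members were called higher, and Pcdhb22 lost its call in quiescent cells (0.66). Depth limits the alpha members most, at 62.0 to 121 summed counts in quiescent and 15 to 38 in Yme1l KO libraries. Beta members had 458 to 762 summed counts in quiescent libraries, against 2030 to 2238 in Yme1l KO libraries. Whether this bears on the beta calls was not tested.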
